A study of Mus musculus with 9 samples.

Results

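The genes described here encode the core microRNA machinery of the mouse: the nuclear processing enzyme Drosha and its partner Dgcr8, the exporter Xpo5, the cytoplasmic processing enzyme Dicer1, the Argonautes Ago1, Ago2, Ago3 and Ago4, and the GW182 proteins Tnrc6a and Tnrc6b. The rule takes genes by name, from probe sets whose platform annotation gives 1 gene symbol. It uses no measured value, but the genes were chosen with earlier results of these data known, so their counts beside those of all genes are descriptions. All 10 genes were found, among 18193 genes on the array, with 35 of the 34945 probe sets that name a single gene. Each gene is described by its brightest probe set, the one with the highest mean over the 9 arrays, and the other probe sets are given beside it by value, range or count.

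The study recovered RNA bound to Argonaute (AGO) protein from C57BL/6 mouse T lymphocytes after 24 h of culture. One group was cultured with allogeneic BALB/c dendritic cells, another with anti-CD3e and anti-CD28, each dosed at 0.1 µg/ml and here called anti-CD3/CD28, and the third with syngeneic C57BL/6 dendritic cells, with 20 T cells for each dendritic cell in both cocultures. T cells were then separated on magnetic columns, exposed to ultraviolet light and lysed, and the RNA that came down with an antibody to AGO was amplified and hybridised to 1 Affymetrix array per sample. The allogeneic and anti-CD3/CD28 cultures are together called stimulated. Each group has 3 arrays, numbered biological rep 1 to 3. All 3 groups share the strain of the T cells, the crosslinking and the precipitation. The labels do not say whether the numbers stand for separate animals or cultures, so a p-value here measures only the spread between these samples.

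MicroRNA genes are transcribed as long primary transcripts, which Drosha and Dgcr8 cut in the nucleus into hairpin precursors. Exportin 5, the product of Xpo5, carries the hairpins to the cytoplasm, where Dicer1 cuts them into short duplexes. An Argonaute keeps 1 strand as a guide to target messenger RNAs, and a GW182 protein bound to the Argonaute brings in the enzymes that shorten the poly(A) tail. In T cells the pathway shapes proliferation and differentiation, and Argonaute protein is known to decline after activation. Because the arrays read RNA recovered with AGO, a value for one of these genes is the level of its own messenger RNA in that fraction, not the amount of its protein. No array of unprecipitated RNA was analysed here, so abundance of a transcript and its recovery with AGO cannot be told apart. In such bulk samples, fewer cells of a type and less RNA per cell cannot be told apart either.

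Values are log2 signals, and the median probe set of an array lay between 4.58 and 5.67. The arrays differed far more by biological rep number than by culture. The number carried a median of 88.3% of the variance of the 10 genes and the culture 4.08%, against 92.7% and 2.08% over all genes. Between arrays of 1 number, 17.9% to 49.0% of the genes had exactly equal values, and between numbers none did. The allogeneic and anti-CD3/CD28 arrays of number 1 were the closest pair, with an SD of the log2 difference between them over genes of 0.103, against 0.493 for number 2 and 0.680 for number 3. Among the 10 genes, 9 of 90 same-number pairs were exactly equal, against 29.1% of such pairs over all genes. An equal value there need not be a measured lack of difference, and what produced the equal values was not tested.

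The labelled cell type was checked with marker genes. All 14 measured T cell markers lay above the array median on all 9 arrays. RNA of other cells was also present. The summed macrophage and monocyte markers did not overlap between syngeneic and stimulated cultures. Those of dendritic cells, B cells and stroma did. The 13 measured macrophage and monocyte markers summed to 896 to 1740 linear signal units in allogeneic cultures and 398 to 1140 in anti-CD3/CD28 cultures, against 6880 to 9520 in syngeneic cultures. Of these 13, 6 to 8 lay above the median in allogeneic cultures and 4 to 7 in anti-CD3/CD28 cultures, against 9 to 10 in syngeneic cultures. Their sum mostly follows a few genes, with Lyz1 and Lyz2 the brightest of the 13 on every syngeneic array. The median log2 signal of the 13 did overlap, at 5.18 in syngeneic culture 1 against 5.91 in allogeneic culture 2 and 5.64 in anti-CD3/CD28 culture 2. All 13 were lower by mean in both stimulated cultures, from -0.12 and -0.11 for Msr1 to -3.67 and -4.60 for Csf1r. The 14 dendritic cell markers summed to 7240 to 30800 in allogeneic cultures and 5690 to 13000 in anti-CD3/CD28 cultures, against 10600 to 28300 in syngeneic cultures. All 14 were lower by mean than in syngeneic culture in both stimulated cultures. The median log2 difference was -0.24 in allogeneic and -0.84 in anti-CD3/CD28 culture. The amounts were unlike, with Ccr7 at -0.09 and Ccl17 at -3.13 in anti-CD3/CD28 culture. The sum of these markers cannot be read as dendritic cell RNA alone. The 7 B cell markers summed to 3940 to 7830 in allogeneic cultures and 2560 to 6740 in anti-CD3/CD28 cultures, against 5940 to 14100 in syngeneic cultures. That sum mostly follows Ighm, the brightest of the 7 on every array. By mean log2 difference from syngeneic culture, 1 of the 7 was higher and 6 lower in allogeneic culture. In anti-CD3/CD28 culture 3 were higher and 4 lower. The 6 stromal markers summed to 124 to 2730 in allogeneic cultures and 127 to 1920 in anti-CD3/CD28 cultures, against 119 to 8310 in syngeneic cultures. The high stromal values all came from number 2 (2730, 1920 and 8310). On the arrays of numbers 1 and 3 the stromal sums ran only from 119 to 142. The 9 mitosis markers summed to 1400 to 4480 in allogeneic cultures and 3130 to 3340 in anti-CD3/CD28 cultures, against 992 to 2980 in syngeneic cultures. The part of these cells and of cell division in the differences given here was not tested.

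Differences were tested with limma over all 18193 genes with Benjamini-Hochberg adjustment, first with the 3 groups alone and then with the biological rep number as a block. No member passed an adjusted p of 0.05 in any of the 3 comparisons by either fit, and no other gene did (0.0% of genes called in each). Every member had an adjusted p of 1.0 in the fit without the block. With the number as a random block, 1 gene was called between allogeneic and syngeneic cultures and 30 between anti-CD3/CD28 and syngeneic cultures, none of them a member. In the fit with the fixed block, Xpo5, Ago1 and Tnrc6b had an unadjusted p under 0.05 between allogeneic and syngeneic cultures, 3 of 10 members against 4.53% of all genes (825 genes); 1 of 10 was higher, against 2.33%, and 2 of 10 lower, against 2.21%. Between anti-CD3/CD28 and syngeneic cultures Xpo5 and Ago1 did, 2 of 10 against 6.79% (1236 genes); 1 of 10 was higher, against 2.23%, and 1 of 10 lower, against 4.56%. Between allogeneic and anti-CD3/CD28 cultures 0 of 10 did, against 1.13% (205 genes; 0.792% higher and 0.335% lower). Without the block no member reached that level, against 0.148%, 0.857% and 0.132% of all genes in the 3 comparisons (27, 156 and 24 genes). The comparisons against syngeneic culture share their syngeneic arrays, so their likeness is no separate support.

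**Figure D1:**
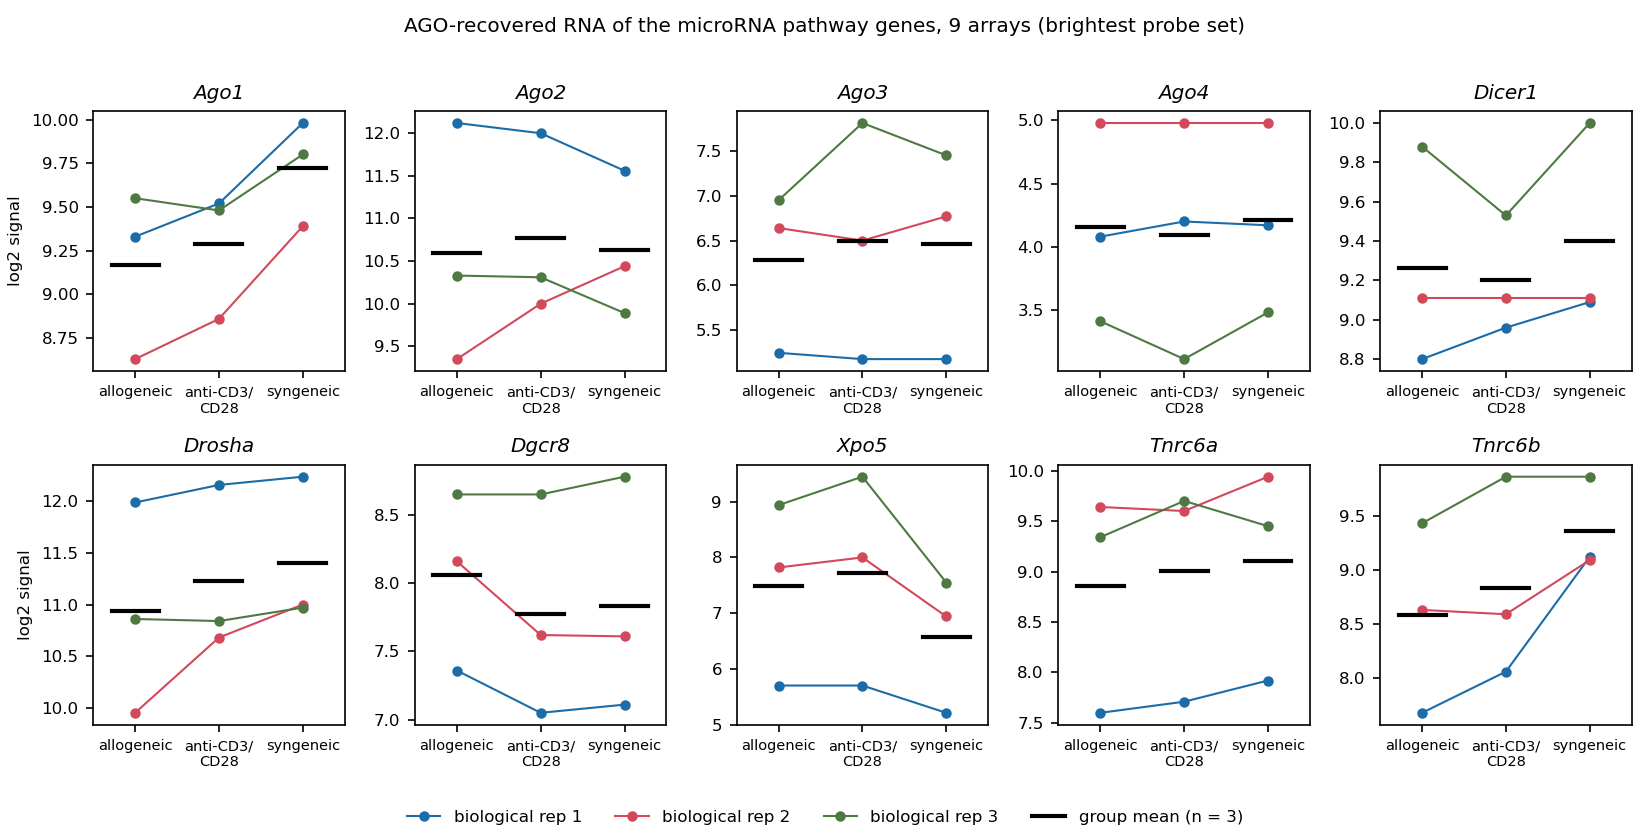
Log2 signal of the brightest probe set of each of the 10 genes on the 9 arrays, with lines joining arrays of the same biological rep number and black bars for group means (n = 3). Xpo5 is lowest in the syngeneic culture in all 3 numbers, and Ago1 is highest there in all 3 numbers.

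Xpo5 showed the largest difference of the 10 genes and was higher in both stimulated cultures. Its signals were 5.70, 7.82 and 8.94 in allogeneic cultures 1 to 3 and 5.70, 8.0 and 9.45 in anti-CD3/CD28 cultures, against 5.21, 6.94 and 7.55 in syngeneic cultures. The syngeneic array was the lowest of its number each time, but the groups overlap because number 1 is low throughout. The log2 difference from syngeneic culture was 0.92 for allogeneic culture (1.89-fold; SE 1.05, or 0.270 with the block) and 1.15 for anti-CD3/CD28 culture (2.22-fold). With the block limma's adjusted p-values were 0.709 and 0.684. Among all genes, Xpo5 stood at the 99.4th and 99.6th percentile of the log2 difference. The within-number differences were 0.49, 0.88 and 1.39 for allogeneic culture and 0.49, 1.06 and 1.90 for anti-CD3/CD28 culture. Higher in all 3 numbers held for 7.29% and 7.8% of all genes, where a gene with an exactly equal pair in the comparison cannot count. The allogeneic and anti-CD3/CD28 arrays of number 1 gave exactly equal Xpo5 values. Number 3 had the largest difference in both comparisons. Without its 3 arrays the mean differences were 0.68 and 0.78, and without those of number 1 they were 1.13 and 1.48.

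The dimmer probe set of Xpo5 gave 4.74, 5.69 and 7.52 in allogeneic cultures and 4.85, 5.69 and 7.06 in anti-CD3/CD28 cultures, against 4.85, 5.69 and 6.47 in syngeneic cultures. In number 3 both stimulated cultures were above syngeneic on this probe set, as on the brighter one. In number 2 the values were equal to 2 decimals, and in number 1 the allogeneic array was the lowest (difference from syngeneic -0.11). Its mean log2 differences from syngeneic culture were 0.31 and 0.20. Xpo5 also holds a microRNA gene, and both mature strands are shown as the annotated microRNA within the member with the largest difference. The strands lie at chr17:46231551-46231571 and chr17:46231581-46231603 on the plus strand of GRCm38.p6 in RefSeq, with the seed, bases 2 to 8, in capitals.
mmu-miR-693-5p: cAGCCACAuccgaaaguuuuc
mmu-miR-693-3p: gCAGCUUUcagauguggcuguaa

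The promoter of Xpo5 is shown because this gene had the largest difference, and Xpo5 is the 1 member of 9 with a window to hold CGCATGCG, the core of the palindrome known for nuclear respiratory factor 1. The window covers 250 bases before to 50 bases after the RefSeq start, at chr17:46202561-46202860 on the plus strand of GRCm38.p6. Capitals mark the 2 copies of CGCATGCG and 1 copy of GGGCGG, read on either strand.
Xpo5 promoter: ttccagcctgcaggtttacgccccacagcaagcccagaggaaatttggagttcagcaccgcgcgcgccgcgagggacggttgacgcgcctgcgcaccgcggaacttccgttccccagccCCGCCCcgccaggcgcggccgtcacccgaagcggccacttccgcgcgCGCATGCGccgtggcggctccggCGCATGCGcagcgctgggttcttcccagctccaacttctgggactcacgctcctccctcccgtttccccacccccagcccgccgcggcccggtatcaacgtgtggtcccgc
CGCATGCG occurs in 1.87% of the 32851 RefSeq promoter windows of this length, and GGGCGG in 35.7% of them. In all, 7 motifs were searched on both strands: these 2, the E-box CACGTG (7.15% of windows), the box CCAAT (37.4%), the ETS form CCGGAAGT (3.89%) and the E2F forms TTTGGCGC (0.514%) and TTTCCCGC (1.07%). The last 3 were found for none of the 9 members, and CACGTG for Tnrc6b alone. CGCATGCG was put in place of a longer form of the same palindrome after that form had been seen to match Xpo5, so its match was known when it was chosen. No searched motif contains another, and a match describes the letters only.

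Drosha, the nuclear enzyme that makes the first cut, was lower in both stimulated cultures in all 3 numbers by its brightest probe set, but its other probe sets did not share that direction. Signals were 11.99, 9.95 and 10.86 in allogeneic cultures and 12.16, 10.68 and 10.84 in anti-CD3/CD28 cultures, against 12.24, 11 and 10.97 in syngeneic cultures. The allogeneic array of number 2 was the lowest of the 9. The log2 difference from syngeneic culture was -0.47 for allogeneic culture (block SE 0.196; limma adjusted p = 0.709) and -0.18 for anti-CD3/CD28 culture (adjusted p = 0.789). The other 2 Drosha probe sets gave 0.13 and 0.34 for allogeneic culture, and 0.12 and 0.17 for anti-CD3/CD28 culture.

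Dgcr8, the RNA-binding partner of Drosha, showed no common direction. Signals were 7.36, 8.16 and 8.65 in allogeneic cultures and 7.05, 7.62 and 8.65 in anti-CD3/CD28 cultures, against 7.11, 7.61 and 8.78 in syngeneic cultures. The allogeneic arrays were highest in numbers 1 and 2, and the syngeneic array in number 3. The log2 difference from syngeneic culture was 0.22 for allogeneic culture and -0.06 for anti-CD3/CD28 culture (block SE 0.161; limma adjusted p = 0.709 and 0.946). The other 3 Dgcr8 probe sets ranged from -0.29 to 0.05 for allogeneic culture and from -0.10 to 0.47 for anti-CD3/CD28 culture, and both values farthest from 0 came from a probe set no brighter than the median on 5 arrays. The Dgcr8 message is itself a substrate of the Drosha and Dgcr8 complex in mammals, which cuts hairpins within it. RefSeq places the mature microRNAs of 2 hairpins in the gene, shown here on the minus strand of chromosome 16 of GRCm38.p6 with the seed in capitals, at chr16:18284248-18284268, chr16:18284288-18284310, chr16:18284562-18284583 and chr16:18284602-18284623.
mmu-miR-1306-3p: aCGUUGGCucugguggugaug
mmu-miR-1306-5p: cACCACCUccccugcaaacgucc
mmu-miR-3618-3p: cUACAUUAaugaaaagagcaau
mmu-miR-3618-5p: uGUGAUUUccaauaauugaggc

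Dicer1, which cuts hairpins into duplexes, varied least across the arrays, with a spread of 1.20 from lowest to highest. Signals were 8.80, 9.11 and 9.88 in allogeneic cultures and 8.96, 9.11 and 9.53 in anti-CD3/CD28 cultures, against 9.09, 9.11 and 10 in syngeneic cultures. All 3 arrays of number 2 were exactly equal. The log2 difference from syngeneic culture was -0.14 for allogeneic culture and -0.20 for anti-CD3/CD28 culture (block SE 0.143; limma adjusted p = 0.732 and 0.729). The second Dicer1 probe set gave -0.31 in both comparisons, with adjusted p-values of 0.747 and 0.736 in the blocked limma fit over all probe sets.

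Ago1 was the Argonaute with a shared direction, lower in both stimulated cultures in all 3 numbers. Signals were 9.33, 8.63 and 9.55 in allogeneic cultures and 9.52, 8.86 and 9.48 in anti-CD3/CD28 cultures, against 9.98, 9.39 and 9.80 in syngeneic cultures. The syngeneic array was the highest of each number, and the ranges of the groups overlap. Against syngeneic culture its log2 difference was -0.55 for allogeneic culture (1.47-fold lower; SE 0.479, or 0.131 with the block) and -0.44 for anti-CD3/CD28 culture (1.35-fold lower). With the block limma's adjusted p-values were 0.709 and 0.727. Ago1 had the largest share of variance carried by the culture among the 10 genes, 35.5%, against 59.3% by the number. Without the 3 arrays of number 1 the differences were -0.50 and -0.42. Ago1 has 1 probe set, so no second reading was possible.

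The promoter of Ago1 is shown as the Argonaute counterpart of the Xpo5 window, and it lies at chr4:126468582-126468881 on the minus strand of GRCm38.p6. Capitals mark 2 copies of GGGCGG and 1 copy of CCAAT, both read on the opposite strand, and CCAAT occurs in 37.4% of all windows. RefSeq places Ago1, Ago3 and Ago4 beside each other on chromosome 4.
Ago1 promoter: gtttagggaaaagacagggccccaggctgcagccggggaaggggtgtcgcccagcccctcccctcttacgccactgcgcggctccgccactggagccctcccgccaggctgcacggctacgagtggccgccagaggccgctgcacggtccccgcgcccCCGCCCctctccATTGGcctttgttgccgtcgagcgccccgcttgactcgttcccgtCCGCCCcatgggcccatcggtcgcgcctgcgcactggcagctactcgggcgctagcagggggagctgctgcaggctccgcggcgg

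Ago2, the Argonaute that can cut its target, was bright and showed no common direction. Signals were 12.12, 9.35 and 10.33 in allogeneic cultures and 12.0, 10 and 10.31 in anti-CD3/CD28 cultures, against 11.56, 10.44 and 9.89 in syngeneic cultures. Both stimulated cultures were higher than syngeneic in numbers 1 and 3 and lower in number 2. Relative to syngeneic culture, the log2 difference was -0.03 for allogeneic culture and 0.14 for anti-CD3/CD28 culture (block SE 0.332; limma adjusted p = 0.993 and 0.924). The other 3 Ago2 probe sets ranged from 0.00 to 0.16 for allogeneic culture and from 0.03 to 0.46 for anti-CD3/CD28 culture.

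Ago3 and Ago4, which lack the strong cutting activity of Ago2 in mammals, had lower signals on their own probe sets, which cannot be read as lower levels because probe sets differ in brightness. Ago3 gave 5.25, 6.64 and 6.95 in allogeneic cultures and 5.18, 6.50 and 7.81 in anti-CD3/CD28 cultures, against 5.18, 6.77 and 7.45 in syngeneic cultures. Its log2 difference from syngeneic culture was -0.19 for allogeneic culture and 0.03 for anti-CD3/CD28 culture (block SE 0.220). The cultures changed order from number to number. Ago4 did not exceed the median of any of the 9 arrays with its brightest probe set, at 4.08, 4.98 and 3.41 in allogeneic cultures and 4.20, 4.98 and 3.11 in anti-CD3/CD28 cultures, against 4.17, 4.98 and 3.48 in syngeneic cultures. Its log2 difference from syngeneic culture was -0.05 for allogeneic culture and -0.12 for anti-CD3/CD28 culture, and its 3 arrays of number 2 were exactly equal. The second Ago4 probe set gave 0.02 and 0.14 and was no brighter than the median on 7 arrays. Of the other 4 Ago3 probe sets, 3 were lower in both stimulated cultures, with log2 differences of -0.33 to -0.03 for allogeneic culture and -0.12 to -0.03 for anti-CD3/CD28 culture. These 3 were no brighter than the median on 2, 6 and 7 arrays. The one at -0.03 in both comparisons had 7 of 9 same-number pairs exactly equal. The remaining Ago3 probe set gave 0.83 and 0.39, was also no brighter than the median on 7 arrays, and was singled out after its values were seen. It read 6.46 in allogeneic culture 3 and 5.14 in anti-CD3/CD28 culture 3, against 3.98 in syngeneic culture 3, with near-equal values in numbers 1 and 2.

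Tnrc6b was lower in both stimulated cultures, with the largest difference in number 1. GW182 proteins bridge Argonaute to the deadenylases. Signals were 7.68, 8.63 and 9.43 in allogeneic cultures and 8.06, 8.59 and 9.86 in anti-CD3/CD28 cultures, against 9.12, 9.09 and 9.86 in syngeneic cultures. In number 3 the anti-CD3/CD28 and syngeneic arrays gave the same value to 2 decimals, and the ranges of the groups overlap. Against syngeneic culture its log2 difference was -0.78 for allogeneic culture (1.71-fold lower; SE 0.632, or 0.254 with the block; limma adjusted p = 0.709 with the block) and -0.52 for anti-CD3/CD28 culture (1.43-fold lower; adjusted p = 0.729). Without the 3 arrays of number 1 the differences were -0.45 and -0.25. Of the other 2 Tnrc6b probe sets, one gave -0.34 and -0.28, with a higher value in both stimulated cultures of number 3, and the other gave 0.18 and 0.06.

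Tnrc6a has 9 probe sets, and its brightest was lower in allogeneic than in syngeneic culture in all 3 numbers. Signals were 7.60, 9.64 and 9.34 in allogeneic cultures and 7.71, 9.60 and 9.70 in anti-CD3/CD28 cultures, against 7.92, 9.94 and 9.45 in syngeneic cultures. The differences were small beside the distance between number 1 and the other numbers. Relative to syngeneic culture, the log2 difference was -0.24 for allogeneic culture and -0.10 for anti-CD3/CD28 culture (block SE 0.144; limma adjusted p = 0.709 and 0.846). Each comparison had 1 lower probe set that was no brighter than the median on all 9 arrays, at -0.04 for allogeneic culture and -0.00 for anti-CD3/CD28 culture. Counting it, 6 of the 9 probe sets were lower in each comparison. One of them, which read 7.61, 8.45 and 8.31 in allogeneic cultures and 7.49, 7.86 and 8.50 in anti-CD3/CD28 cultures, against 8.32, 8.82 and 8.85 in syngeneic cultures, was lower in all 3 numbers of both comparisons. Its log2 differences were -0.54 and -0.72 (block SE 0.181; limma adjusted p = 0.747 and 0.736), and it was singled out after its values were seen.

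**Figure D2:**
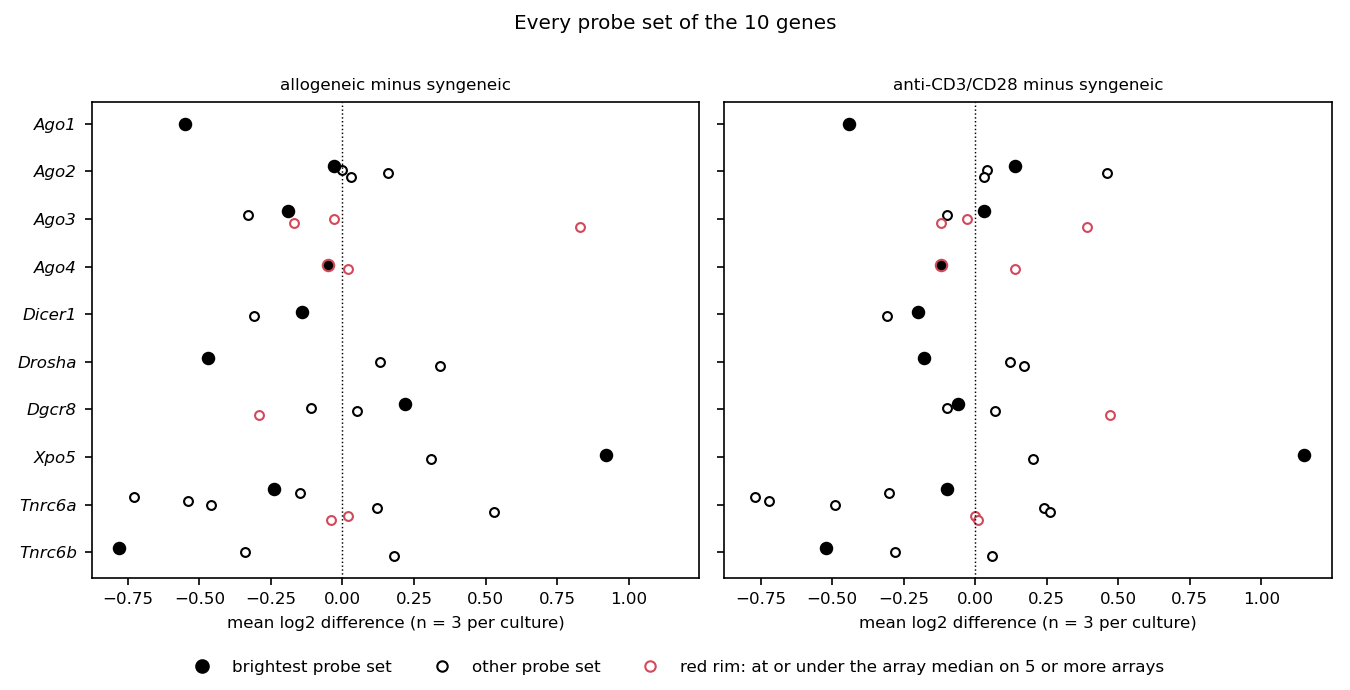
Mean log2 difference from syngeneic culture for all 35 probe sets of the 10 genes, for allogeneic culture (left) and anti-CD3/CD28 culture (right), with filled points for the brightest probe set and red rims for probe sets no brighter than the median on 5 or more arrays. Both Xpo5 probe sets and both Dicer1 probe sets lie on 1 side of 0 in each panel, while those of Drosha, Dgcr8, Ago3, Ago4, Tnrc6a and Tnrc6b lie on both sides. The dimmer Xpo5 probe set was above syngeneic culture in number 3 alone (1.05 for allogeneic and 0.59 for anti-CD3/CD28 culture).

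Within biological rep numbers, 4 of 10 genes were lower in all 3 numbers of allogeneic against syngeneic culture (Ago1, Drosha, Tnrc6a and Tnrc6b), where 7.96% of all genes were. For anti-CD3/CD28 against syngeneic culture 3 of 10 were (Ago1, Drosha and Tnrc6b), against 9.15% of all genes. Tnrc6b is counted there on a number 3 difference that is 0.00 to 2 decimals. A gene with an exactly equal pair in a comparison cannot be higher or lower in all 3 of its numbers. Such pairs were rarer among the 10 genes (9 of 90) than over all genes (29.1%). The counts of members and the percentages of all genes are therefore not like for like. Between allogeneic and anti-CD3/CD28 culture none of the 10 was higher or lower in all 3 numbers, against 4.39% of genes higher and 2.58% lower. The groups did not overlap for 0 of 10 genes in each comparison, against 0.643%, 1.93% and 0.324% of all genes. The median log2 difference of the 10 genes was -0.16, -0.11 and -0.16 in the 3 comparisons, against 0.03, 0.00 and 0.04 over all genes. After each array was centred on its median the median of all genes became -0.01, 0.11 and -0.11.

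Between allogeneic and anti-CD3/CD28 cultures no member reached an unadjusted p under 0.05. The log2 differences of allogeneic minus anti-CD3/CD28 culture ran from -0.30 for Drosha to 0.28 for Dgcr8, with Tnrc6b at -0.26, Xpo5 at -0.23, Ago3 at -0.22, Ago2 at -0.18, Tnrc6a at -0.14, Ago1 at -0.12, and Dicer1 and Ago4 at 0.06. Dgcr8 had higher allogeneic values in 2 of 3 numbers and equal ones in the third on its brightest probe set (blocked limma adjusted p = 0.928). Counting the brightest, its sign was shared by 1 of 4 probe sets of Dgcr8, 1 of 3 of Drosha and 3 of 9 of Tnrc6a. For Xpo5, Dicer1 and Ago4 it was shared by 1 of 2, for Tnrc6b by 2 of 3, for Ago3 by 4 of 5 and for Ago2 by 4 of 4. These log2 differences do not show that the cultures act alike, since the blocked SE ran from 0.0963 for Ago4 to 0.332 for Ago2.

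**Figure D3:**
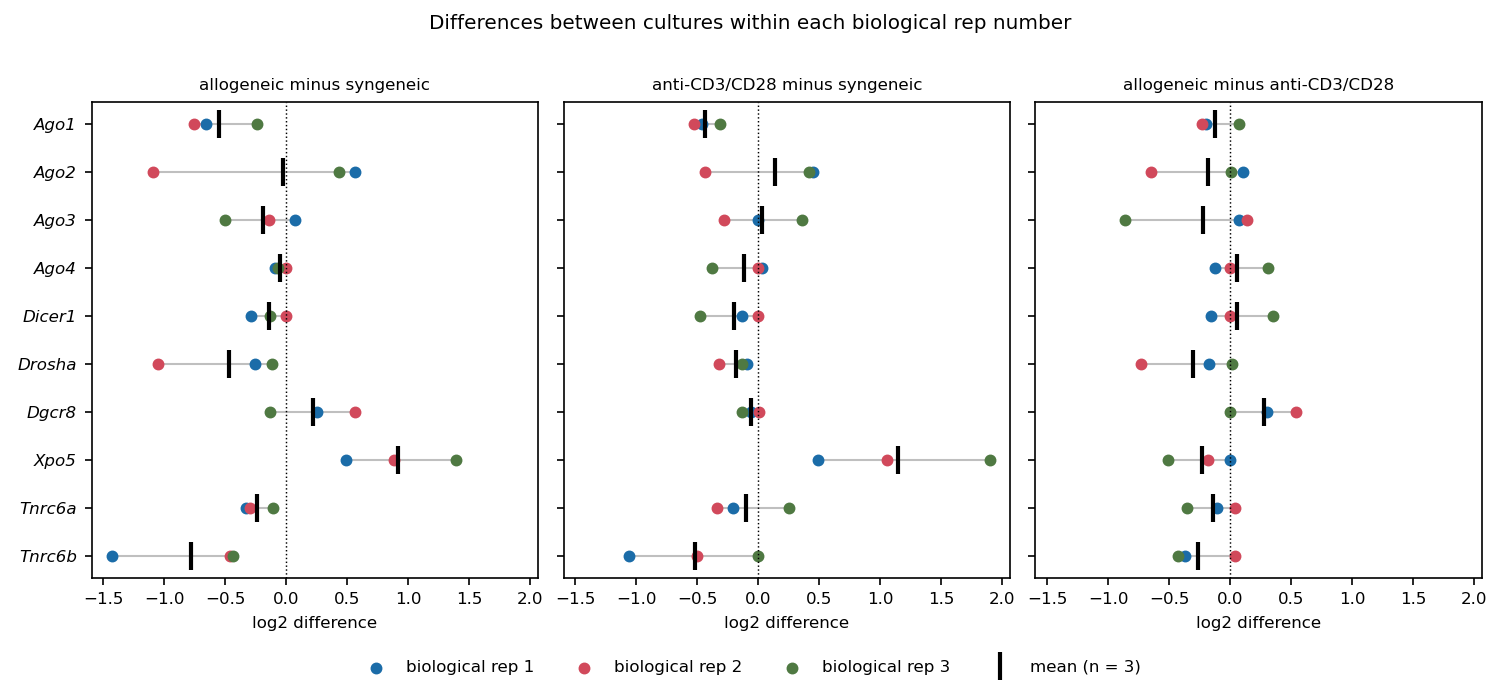
Log2 difference between cultures within biological rep numbers 1, 2 and 3 for each of the 10 genes, with black bars for the mean (n = 3) and a dotted line at 0. Xpo5 lies right of 0 and Ago1 left of 0 in all 3 numbers of both comparisons against syngeneic culture, and no gene keeps to 1 side in all 3 numbers of allogeneic minus anti-CD3/CD28.

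The other genes of the pathway were read from lists with the same tests, and no gene of any list passed an adjusted p of 0.05 without the block or with the fixed block. Of 21 measured processing partners and modifiers, 9 were higher and 12 lower in allogeneic than in syngeneic culture, with a median log2 difference of -0.01. In anti-CD3/CD28 culture 11 were higher and 10 lower (median 0.02). Ddx17, an RNA helicase of the Drosha complex, read 11.34, 10.19 and 11.05 in allogeneic cultures and 10.96, 10.31 and 10.96 in anti-CD3/CD28 cultures, against 11.60, 10.72 and 11.32 in syngeneic cultures. The syngeneic array was the highest of each number. Its log2 differences were -0.35 and -0.47 (block SE 0.114; limma adjusted p = 0.709 and 0.684), in the same direction in 3 of 3 probe sets. Tut7, which adds uridines to precursors, gave -0.61 and -0.48 (block SE 0.149; limma adjusted p = 0.709 and 0.727), with the same sign in 1 of 2 probe sets. Among 20 measured genes of Argonaute loading, 11 were higher and 9 lower in allogeneic culture, and 13 higher and 7 lower in anti-CD3/CD28 culture. Among 27 silencing effectors 13 were higher and 14 lower in allogeneic culture, and 12 higher and 15 lower in anti-CD3/CD28 culture. Of 10 genes of the germline PIWI pathway, 2 to 4 lay above the array median.

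Among 20 measured host genes of microRNAs, 8 were higher and 12 lower in allogeneic than in syngeneic culture (median log2 difference -0.03), and 9 were higher and 11 lower in anti-CD3/CD28 culture (median -0.18). The 3 listed pantothenate kinase genes Pank1, Pank2 and Pank3 were lower in both stimulated cultures in all 3 numbers. Lower in all 3 numbers held for 4 of the 20 host genes in allogeneic culture, against 7.96% of all genes. In anti-CD3/CD28 culture it held for 5 of the 20, against 9.15%. With Mcm7, these genes were named for the smallest p-values of the list, so their shared direction is a description of picked genes. Pank1 read 5.26, 4.55 and 5.61 in allogeneic cultures and 5.14, 5.02 and 5.34 in anti-CD3/CD28 cultures, against 5.96, 5.59 and 6.09 in syngeneic cultures, and was no brighter than the median probe set on 3 arrays. Its log2 differences were -0.74 and -0.72 (block SE 0.156; limma adjusted p = 0.709 and 0.684), with the same sign in 3 of 4 probe sets. With the median over its probe sets the differences were -0.01 and -0.07. Pank2 gave -0.63 and -0.88, and Pank3 gave -0.60 and -0.80 (block SE 0.322 and 0.321). These genes host miR-107 and the copies of miR-103, which have been reported to target the Dicer1 message. They are shown because they share 1 seed, in capitals, and lie at chr19:34820700-34820722 (minus), chr2:131288103-131288125 (plus) and chr11:35782447-35782469 (plus).
mmu-miR-107-3p: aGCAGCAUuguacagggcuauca
mmu-miR-103-3p: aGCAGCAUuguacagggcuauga

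Mcm7, a replication helicase gene that hosts a microRNA cluster, read 11.73, 9.42 and 11.59 in allogeneic cultures and 11.90, 11.15 and 11.81 in anti-CD3/CD28 cultures, against 10.77, 9.67 and 11.36 in syngeneic cultures. It was highest in the anti-CD3/CD28 culture of every number, and 4 of 4 probe sets had the same sign. Its log2 differences were 0.31 for allogeneic culture and 1.02 for anti-CD3/CD28 culture (block SE 0.348; limma adjusted p = 0.743 and 0.727). The host genes are given as messages, and mature microRNAs were not measured on these arrays. The 2 cluster members with a shared seed lie at chr5:138165787-138165807 and chr5:138165574-138165596 on the minus strand of GRCm38.p6, and the seed is in capitals.
mmu-miR-106b-5p: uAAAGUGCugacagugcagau
mmu-miR-93-5p: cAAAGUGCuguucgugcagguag

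**Figure D4:**
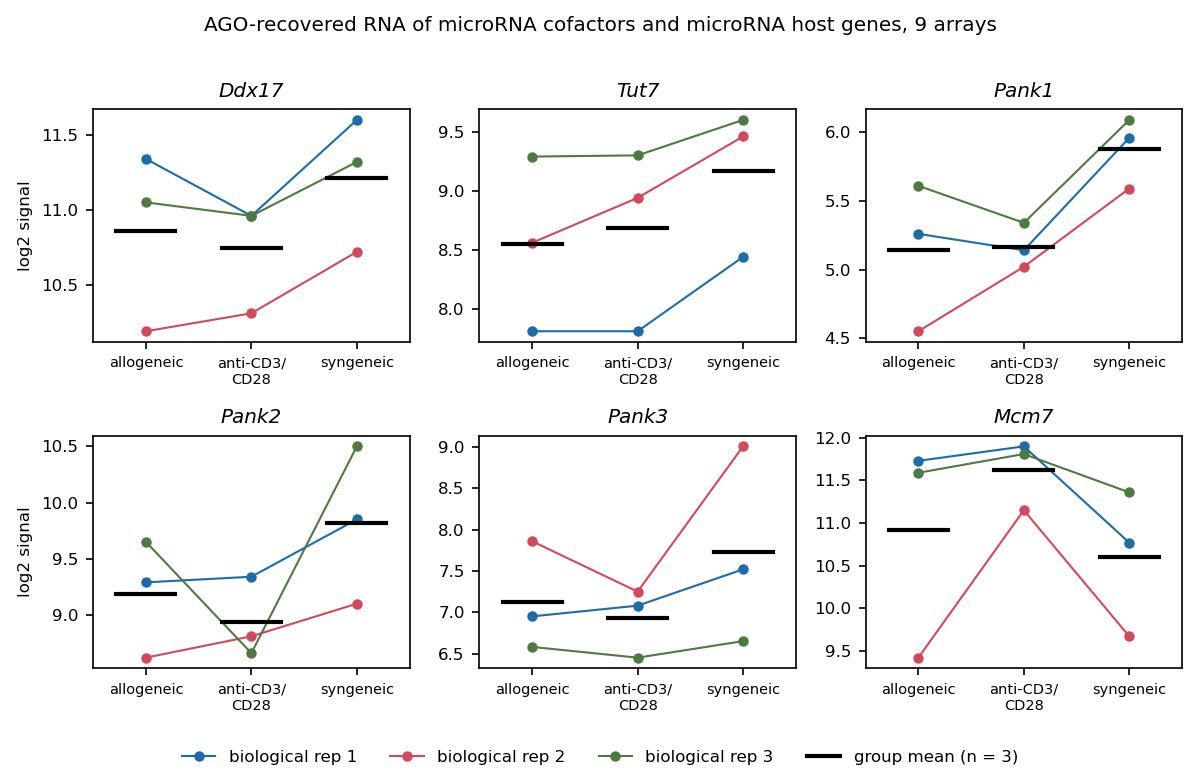
Log2 signal of the brightest probe set of Ddx17, Tut7, Pank1, Pank2, Pank3 and Mcm7 on the 9 arrays, with lines joining arrays of the same biological rep number and black bars for group means (n = 3). The first 5 genes are highest in the syngeneic culture of every number, and Mcm7 is highest in the anti-CD3/CD28 culture of every number. These genes were picked from those with the smallest p-values of their lists.

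After the mean of each biological rep number was subtracted, the members could be compared with each other over the 9 arrays. Of 45 pairs, 24 had a Pearson r above 0. The highest was Ago4 with Dicer1 (0.94), each of which had exactly equal values within number 2, followed by Tnrc6a with Tnrc6b and Ago1 with Tnrc6b (0.81 each) and Ago1 with Drosha (0.80). The lowest was Drosha with Dgcr8 (-0.87), followed by Dicer1 with Xpo5 (-0.73) and Ago1 with Xpo5 (-0.71). These correlations are descriptions over arrays that share cultures and normalization, and they use only the brightest probe set of each gene. The other Drosha probe sets went the other way against syngeneic culture, and the Ago4 probe set exceeded the median of none of the 9 arrays. Among 8806 other genes brighter than the median gene, those most like Xpo5 were Espl1, which encodes separase, Rasgrp2 and Rpl10a (r = 0.981, 0.972 and 0.970). Those most like Ago1 were Sdf2, Tcn2 and Vsir (0.991, 0.983 and 0.977), those most like Tnrc6b were Man2a2, Jakmip1 and Gpr108 (0.980, 0.970 and 0.964), and the gene most like Drosha was Nmt1 (0.998). Each of these genes was picked as among the highest of 8806 over 9 arrays. The closest gene of every member reached an r of at least 0.954, and that of the dim Ago4 reached 0.983. An r of this height therefore does not single out a partner. Pearson r also takes no account of size. Against syngeneic culture Rpl10a differed by 0.06 and 0.08, where Xpo5 differed by 0.92 and 1.15. Espl1 gave 0.90 and 1.18, and Rasgrp2 0.74 and 0.98. Tcn2 differed by -1.62 and -1.44, where Ago1 differed by -0.55 and -0.44.

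**Figure D5:**
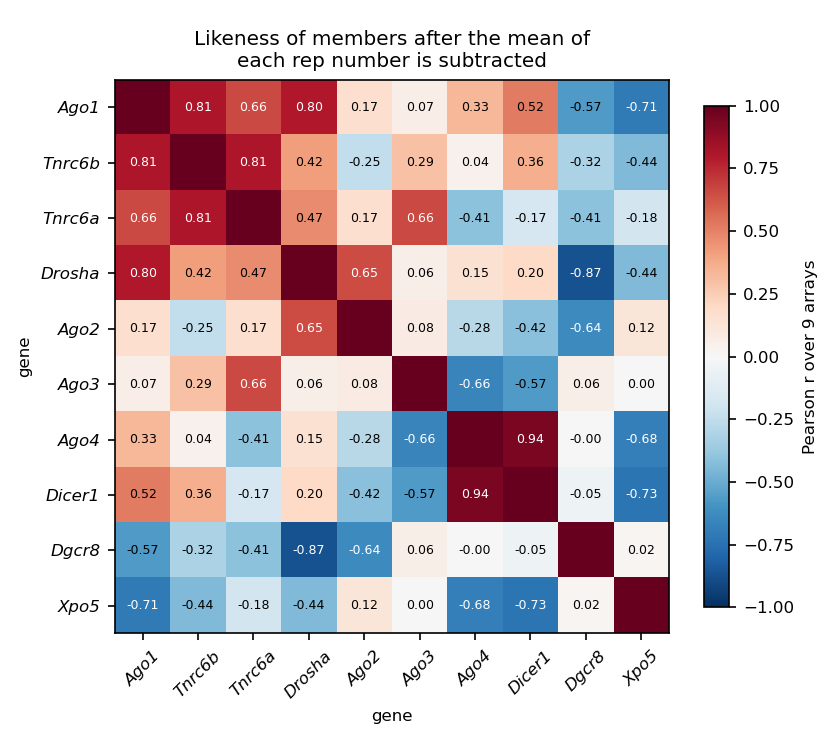
Pearson r between each pair of the 10 genes over 9 arrays, after the mean of each biological rep number was subtracted; red is above 0 and blue below. Ago1, Tnrc6b, Tnrc6a and Drosha have values above 0 with each other, and Xpo5 has values from -0.71 to -0.18 with these 4 genes.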

How the data were processed

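The values are log2 signals per probe set that the authors deposited in a series table of 9 arrays and 45101 probe sets. They were made with RMA (robust multi-array average), per the submitters' processing notes, whose version is not given in the sources used here, and which arrays were normalized together is not given either. Ties within a number bear on small differences. Control probe sets (64), those of several genes (932) and those with no gene (9160) were left out. Symbols came from the platform annotation. They were checked by gene ID, which matched a mouse gene reference for 34741 of 34945 probe sets, and 0 symbols changed.

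The test was limma's moderated test (limma 3.58.1, R 4.3.3; 1 mean per group, intensity trend, Benjamini-Hochberg over 18193 genes, threshold 0.05). The number of arrays limits the precision, with a median SE of 0.639, or 0.156 with the block. The biological rep numbers pair the arrays: after group means were removed, same-number arrays correlated at 0.811 to 0.921 (9 pairs). The pairing comes from the data, since the labels give only the numbers. Alternatives changed the block, normalization, probe set choice, dim-gene filter, variance prior and arrays used.

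The members and gene lists were chosen with earlier results of these data known. All members are named. Each list had up to 4 genes with the smallest p in any comparison, and not all of these are given. From the pathway lists only Ddx17, Tut7, Pank1, Pank2, Pank3 and Mcm7 are given, and none from the Argonaute loading, silencing effector and PIWI lists. Of the 3 genes most like each member, some are given. Promoter windows (9 of 10 members matched, in 11 windows) and microRNAs are from RefSeq tables of GRCm38.p6.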

Additional observations from a re-analysis of the deposited data

How the results depend on the processing

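No member passed an adjusted p of 0.05 under any alternative tried. With the biological rep number as a random replicate block, 1 gene of all genes was called between allogeneic and syngeneic cultures and 30 between anti-CD3/CD28 and syngeneic cultures, and with arrays centred on their medians 1 gene was called in each. The fixed replicate block changed no call, with 0 genes called in every comparison. Over all settings, the lowest adjusted p of the 10 members and of Ddx17, Tut7, Pank1, Pank2, Pank3 and Mcm7 was 0.11, for Pank1. Of 42 single-gene differences, 16 kept their sign under all settings, 14 reversed only when arrays were left out and 12 reversed under another setting. Xpo5 stayed higher against syngeneic culture (0.19 to 1.81 and 0.29 to 2.16 with arrays left out), Ago1 lower (-0.75 to -0.28 and -0.60 to -0.22) and Tnrc6b lower (-1.20 to -0.33 and -1.03 to -0.13).

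For the differences that reversed under a setting other than leaving arrays out, the cause was not tested. Under quantile normalization, Ago2 was 0.010 for allogeneic minus syngeneic, and Dgcr8 and Tnrc6a were 0.067 and 0.021 for anti-CD3/CD28 minus syngeneic. With arrays centred on their medians, Dgcr8 and Tnrc6a were 0.055 and 0.013 for anti-CD3/CD28 minus syngeneic, and Ago4 and Dicer1 were -0.083 and -0.081 for allogeneic minus anti-CD3/CD28. With the median over probe sets, Ago2 and Drosha were 0.080 and 0.13 for allogeneic minus syngeneic. For anti-CD3/CD28 minus syngeneic, Ago3, Ago4, Drosha and Dgcr8 were then -0.038, 0.011, 0.12 and 0.030. For allogeneic minus anti-CD3/CD28, Ago4, Drosha, Dgcr8 and Tnrc6a were -0.027, 0.0048, -0.0027 and 0.035. The same setting kept the sign but brought the differences of allogeneic and anti-CD3/CD28 minus syngeneic to 0.62 and 0.67 for Xpo5, -0.34 and -0.28 for Tnrc6b, -0.21 and -0.19 for Tut7, and -0.01 and -0.07 for Pank1.

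With arrays left out, the differences of allogeneic minus syngeneic ran from -0.79 to 0.59 for Ago2, -0.83 to 0.32 for Ago3, -0.46 to 0.33 for Ago4, -0.45 to 0.16 for Dicer1, -1.0 to 0.017 for Drosha, -0.14 to 0.70 for Dgcr8, -0.83 to 0.39 for Tnrc6a, -1.13 to 0.045 for Pank3 and -0.15 to 1.06 for Mcm7. Those of anti-CD3/CD28 minus syngeneic ran from -0.47 to 0.61 for Ago2, -0.63 to 0.68 for Ago3, -0.56 to 0.38 for Ago4, -0.37 to 0.10 for Dicer1, -0.64 to 0.24 for Drosha, -0.49 to 0.41 for Dgcr8 and -0.69 to 0.55 for Tnrc6a. Those of allogeneic minus anti-CD3/CD28 ran from -0.33 to 0.15 for Ago1, -0.94 to 0.45 for Ago2, -0.87 to 0.44 for Ago3, -0.43 to 0.50 for Ago4, -0.24 to 0.30 for Dicer1, -0.82 to 0.20 for Drosha, -0.079 to 0.72 for Dgcr8, -1.24 to 0.66 for Xpo5, -0.79 to 0.49 for Tnrc6a and -0.68 to 0.26 for Tnrc6b. Leaving out genes below the 40th percentile removed Ago4, which then had no value. With the replicate block and the 3 arrays of a number left out, reversals were -0.0070 for Mcm7 (allogeneic minus syngeneic) and -0.0093 for Ago2 (anti-CD3/CD28 minus syngeneic) without number 1. Without number 2 they were 0.50 for Ago2 (allogeneic minus syngeneic), 0.018 for Tnrc6a (anti-CD3/CD28 minus syngeneic) and 0.061 for Ago2 (allogeneic minus anti-CD3/CD28). Without number 3 they were -0.14 for Ago3 and 0.015 for Ago4 (anti-CD3/CD28 minus syngeneic), and 0.11 for Ago3, -0.060 for Ago4 and -0.079 for Dicer1 (allogeneic minus anti-CD3/CD28).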
